A study of Mus musculus with 28 samples.

Results

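The cytosolic ribosomal protein genes, which encode the protein subunits of the ribosome outside mitochondria, were followed across a reprogramming experiment in mouse cells. Members were all protein-coding symbols made of Rpl or Rps, a number and at most 1 letter a or x, together with Rplp0, Rplp1, Rplp2 and Rpsa; pseudogenes, predicted genes and symbols ending in l were left out. This gave 76 genes, 46 of the large and 30 of the small subunit, of 54109 genes in the reprogramming table and 54838 in the table of induced pluripotent stem cells (iPSC). All 76 were tested in both tables. They lay on 19 chromosomes, with 4 on the X chromosome and the most, 14, on chromosome 7. The rule left out Rps3a1, Fau and Rack1, whose products are also part of the ribosome.

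The 12 reprogramming libraries came from 4 groups of 3: doxycycline with 3C and UNC0638 (DOX 3C UNC), doxycycline with 3C (DOX 3C), doxycycline with UNC0638 (DOX UNC) and doxycycline alone (DOX). Doxycycline, given at 1 µg/ml, switches on the reprogramming factors. UNC0638 (UNC), used at 1 µM, inhibits the histone H3 lysine methyltransferases encoded by Ehmt1 and Ehmt2. 3C stands for 3 compounds that were always given together and so cannot be told apart. They were 50 µg/ml of L-ascorbic acid, 3 µM of the GSK3 inhibitor CHIR99021 and 250 nM of the compound named TGF-b RI Kinase Inhibitor II. All cells were embryonic fibroblasts with a Rosa26-rtTA allele, a heterozygous Oct4-GFP reporter, and either a heterozygous doxycycline-inducible OKSM allele or a homozygous inducible OKS allele; which library carried which was not given. They were seeded on irradiated feeder cells, and whether feeder RNA entered the libraries was not given. The iPSC came from reprogramming with UNC at 1 µM for the first 48 hours (iPSC UNC) or with DMSO (iPSC DMSO), with 3 libraries each. Their labels gave a harvest time of 48 hours and did not say how this applies to iPSC. The labels gave no harvest time for the reprogramming libraries and did not say that replicates were separate cultures, so p-values measure the spread between these libraries.

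Each ribosome carries 1 copy of most ribosomal proteins, and cells make the subunits in near-equal amounts and degrade those left unassembled. In vertebrates their mRNAs start with a cytosine followed by a run of pyrimidines, the 5′ terminal oligopyrimidine (TOP) tract, through which the kinase mTOR and the binding protein LARP1 control their translation. Myc and RNA polymerase I are known to raise ribosome production in growing cells. Free Rpl5 and Rpl11 bind Mdm2 and so stabilise p53.

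Promoter windows of RefSeq (assembly GRCm38.p6) were matched for 56 of the 76 members, as 66 windows of 300 bases, 250 before and 50 after a transcription start. An unbroken run of at least 8 C or T letters on the gene's strand, within 10 bases before to 20 bases after the start, was present in 34.8% of the member windows and in 11.2% of all 32851 windows. The 30 bases around the start are shown for 7 members with such a run, in capitals, as examples of members that were called and not called below. Rps12 (chr10:23787190-23787219, minus strand), Rps27 (chr3:90213629-90213658, minus strand), Rplp2 (chr7:141447641-141447670, plus strand), Rps6 (chr4:86857348-86857377, minus strand) and Rps18 (chr17:33955646-33955675, minus strand) were higher with 3C in both media. Rpl15 (chr14:18270967-18270996, minus strand) was called in neither medium, and Rpl35 (chr2:39005112-39005141, minus strand) was called with UNC but not without it.
Rps12: tcatgcggccaccgccggCCTTTTCCCCTg
Rps27: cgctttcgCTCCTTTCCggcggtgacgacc
Rplp2: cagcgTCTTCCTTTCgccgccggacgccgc
Rps6: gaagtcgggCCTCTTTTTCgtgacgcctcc
Rps18: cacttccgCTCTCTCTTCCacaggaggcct
Rpl15: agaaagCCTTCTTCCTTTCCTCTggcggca
Rpl35: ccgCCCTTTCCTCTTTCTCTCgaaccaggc

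Over the whole 300 bases and both strands, the GABPA-type ETS motif CCGGAAG was found in 36.4% of member windows and 8.86% of all windows. The YY1-type motif GCCATNTT was found in 22.7% against 6.05%, the E-box CACGTG in 12.1% against 7.15%, and the SP1-type box GGGCGG in 60.6% against 35.7%. These are matches of letters, not measured binding. Over all 56 matched members the longest runs were those of Rpl27a, with 20 letters, Rpl35, with 18, and Rpl15 and Rpl7a, with 17 each. In cells without UNC, Rpl27a and Rpl7a were called higher with 3C, and Rpl35 and Rpl15 were not called.

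Reads in genes numbered 10616764 to 20211641 per reprogramming library and 21592023 to 25408585 per iPSC library. The values of the reprogramming table are called normalised counts here: read counts that the authors had divided by 1 factor per library. They were tested on the log2(value + 1) scale, which understates the fold change of low genes, with limma over all 12 libraries, and a gene was called at a Benjamini-Hochberg adjusted p below 0.05 over all 16138 genes tested. Values for iPSC are in CPM, a gene's reads scaled to a common library total. Lengths of transcripts were not used here, so the level of one gene is not compared with that of another. Members ranged from a mean of 15.1 normalised counts for Rps29 to 29546 for Rpl4, and 12 of 76 were under 100. The 2 tables differed widely for single members: the ratio of a member's iPSC CPM to its CPM in the reprogramming table ran from 0.230 for Rpl39 to 159 for Rps29, with a median of 1.41. It was over 10 for 9 members. Both sides of this ratio are in CPM, but the tables were counted separately. The cells and the library sets also differ, and no test was made between the tables.

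The ribosomal protein genes took a larger share of the reads with 3C, with or without UNC. Together they held 1.95% ± 0.0376 of the reads in genes in DOX 3C UNC, 2.00% ± 0.0405 in DOX 3C, 1.398% ± 0.0064 in DOX UNC and 1.42% ± 0.0318 in DOX (mean ± SD, n = 3 each). Every library with 3C lay above every library without it, by far more than the spread within groups. The share in DOX 3C was 1.41 ± 0.0424 times that in DOX, and the share in DOX 3C UNC was 1.396 ± 0.0277 times that in DOX UNC. Taken by subunit, the share in DOX 3C was 1.39 times that in DOX for the large-subunit genes and 1.44 times for the small-subunit genes. No p is given for these sums over chosen members. With UNC alone the share was 0.983 ± 0.0224 times that in DOX, within the spread. Between iPSC UNC, at 1.91% ± 0.0568, and iPSC DMSO, at 1.96% ± 0.0392, the difference was also within the spread of single libraries. Since these are bulk libraries, fewer cells of a type and less RNA per cell cannot be told apart.

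**Figure D1:**
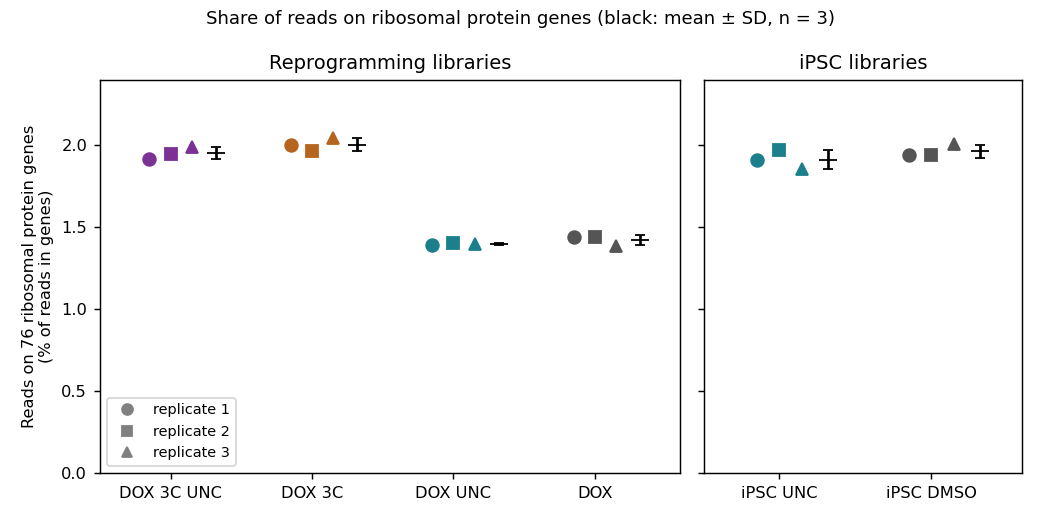
Share of reads on the 76 ribosomal protein genes in each library (y axis, % of reads in genes, from 0) by group (x axis). Symbols mark the replicate number and black bars the mean ± SD of 3 libraries; the 6 libraries with 3C lie between 1.92% and 2.05% and the 6 without it between 1.39% and 1.44%, while iPSC UNC averages 1.91% and iPSC DMSO 1.96%.

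In DOX 3C against DOX, 66 of 76 members were called higher and 0 lower by limma. Of all genes tested, 24.7% were called higher and 24.7% lower in this comparison, 49.4% in all. At an unadjusted p below 0.05 there were also 0 lower members, and edgeR and DESeq2 on the recovered reads each gave 64 higher and 0 lower. The median log2 fold change of the members was 0.47, with the middle 50% between 0.34 and 0.61, against a median of 0.02 over all tested genes. The 3 DOX 3C libraries all lay above the 3 DOX libraries for 67 members, or 88.2% of them, where 29.2% of all tested genes did so. Of the small-subunit genes 29 of 30 were called higher, and of the large-subunit genes 37 of 46.

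Rps12, a small-subunit protein that in Drosophila takes part in cell competition, had the change with the smallest p. The gene (ENSMUSG00000061983) lies on chromosome 10 at 23785183 to 23787383 in GRCm38.p6. It held 1195, 1156 and 1180 normalised counts in DOX 3C, against 503, 446 and 445 in DOX. It held 1076, 1064 and 916 in DOX 3C UNC, against 504, 467 and 469 in DOX UNC. The libraries with and without 3C were far apart and those within a group close together (log2 fold change 1.34 ± 0.07 standard error, adjusted p = 6.5e-11, without UNC, and 1.08 ± 0.07, adjusted p = 1.15e-09, with UNC, limma).

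The acidic stalk of the large subunit, which recruits and activates the translational GTPases, is made of Rplp0, Rplp1 and Rplp2. Their genes lie on chromosome 5 (115559467 to 115563729), chromosome 9 (61913283 to 61914510) and chromosome 7 (141447651 to 141451359) of GRCm38.p6. Rplp0 held 17021, 16432 and 18345 normalised counts in DOX 3C, against 11827, 11865 and 11093 in DOX (0.57 ± 0.06, adjusted p = 2.18e-07, limma). With UNC present it held 16304, 18029 and 17682 in DOX 3C UNC, against 11064, 11976 and 12014 in DOX UNC (0.57 ± 0.06, adjusted p = 2.54e-07, limma). The 2 effects on this scaffold of the stalk were equal to the second decimal. Rplp1 averaged 19451 ± 1688 in DOX 3C and 12490 ± 354 in DOX (0.64 ± 0.07), and 20006 ± 1919 in DOX 3C UNC and 13066 ± 291 in DOX UNC (0.61 ± 0.07; SD, n = 3 each). Rplp2 averaged 2703 ± 114 in DOX 3C and 1656 ± 48.8 in DOX (0.71 ± 0.07), and 2465 ± 296 in DOX 3C UNC and 1858 ± 126 in DOX UNC (0.40 ± 0.07). All 3 stalk genes thus passed the test in both media.

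Among small-subunit genes, Rpsa, a protein of the 40S surface also described as a laminin receptor, rose by 0.61 ± 0.06 without UNC and 0.54 ± 0.06 with it. Its levels were 1609 ± 63.5 normalised counts in DOX 3C and 1054 ± 71.3 in DOX, and 1437 ± 49.8 in DOX 3C UNC and 986 ± 31.6 in DOX UNC. Rps6, the ribosomal substrate of S6 kinase, had few reads assigned to it and rose by 0.66 ± 0.14 and 0.61 ± 0.14. Rps19, mutated in Diamond-Blackfan anaemia in humans, rose by 0.40 ± 0.05 (1381 ± 52.8 in DOX 3C, 1049 ± 29.4 in DOX) and by 0.33 ± 0.05 with UNC. Rps4x, on the X chromosome, rose by 0.40 ± 0.05 and 0.41 ± 0.05. Its libraries did not overlap between DOX 3C, with 4527, 4304 and 4547 normalised counts, and DOX, with 3569, 3303 and 3273.

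Among large-subunit genes, Rpl5 and Rpl11, which carry the 5S rRNA into the ribosome, were near the threshold. Rpl5 held 280, 246 and 249 normalised counts in DOX 3C, against 229, 217 and 206 in DOX (0.24 ± 0.10, adjusted p = 0.0464, limma). Rpl11 held 687, 672 and 628 in DOX 3C, against 618, 582 and 514 in DOX (0.22 ± 0.08, adjusted p = 0.038, limma). Both sets of libraries were separate but close, and both calls were lost in edgeR (adjusted p = 0.0695 for Rpl5 and 0.0547 for Rpl11) and in DESeq2 (0.162 and 0.0919). With UNC, Rpl5 was called (0.25 ± 0.10, adjusted p = 0.0441, limma), which edgeR and DESeq2 did not call either, and Rpl11 was not (0.16 ± 0.08, adjusted p = 0.119, limma), although it was with the replicate number as a block (0.16 ± 0.06, adjusted p = 0.0405). Without UNC the Rpl5 call ended when any one of the 6 libraries but DOX replicate 1 was left out, with adjusted p up to 0.181, and the Rpl11 call without DOX 3C replicate 1 or 2 or DOX replicate 2 or 3, with adjusted p up to 0.195 (limma). With UNC the Rpl5 call ended without DOX 3C UNC replicate 1 or 3 or DOX UNC replicate 1 or 3, again up to 0.181 (limma). Rpl10, an X-linked protein added late in subunit assembly, rose by 0.60 ± 0.12 without UNC and by 0.47 ± 0.12 with it. With UNC the increase was 0.29 when DOX 3C UNC replicate 1, with 564 normalised counts against 395 and 378 in the same group, was left out, and it was still called. Rpl22, whose human counterpart binds Epstein-Barr virus RNA, rose by 0.31 ± 0.05 (5601 ± 262 in DOX 3C, 4523 ± 17.1 in DOX) and by 0.26 ± 0.05 with UNC.

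The largest fold changes in DOX 3C against DOX included genes with few reads. Rpl23a held 35.6, 27.4 and 27.0 normalised counts in DOX 3C, against 12.3, 12.01 and 7.32 in DOX (1.45 ± 0.30). Rps29 held 17.8, 17.03 and 25.5 in DOX 3C, against 7.36, 6.005 and 7.32 in DOX (1.401 ± 0.33), which in DOX rested on 5 or 6 reads per library. Rpl29 rose by 1.13 ± 0.30, Rps28 by 0.90 ± 0.22 and Rps27, a zinc-finger protein of the small subunit, by 0.89 ± 0.20, each with under 130 normalised counts in every library. In all 5 the DOX 3C libraries lay above the DOX libraries. Over the 64 members with a mean of at least 100 normalised counts, a limit chosen after seeing the data, 57 were called higher without UNC and 55 with it, with median log2 fold changes of 0.46 and 0.40.

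**Figure D2:**
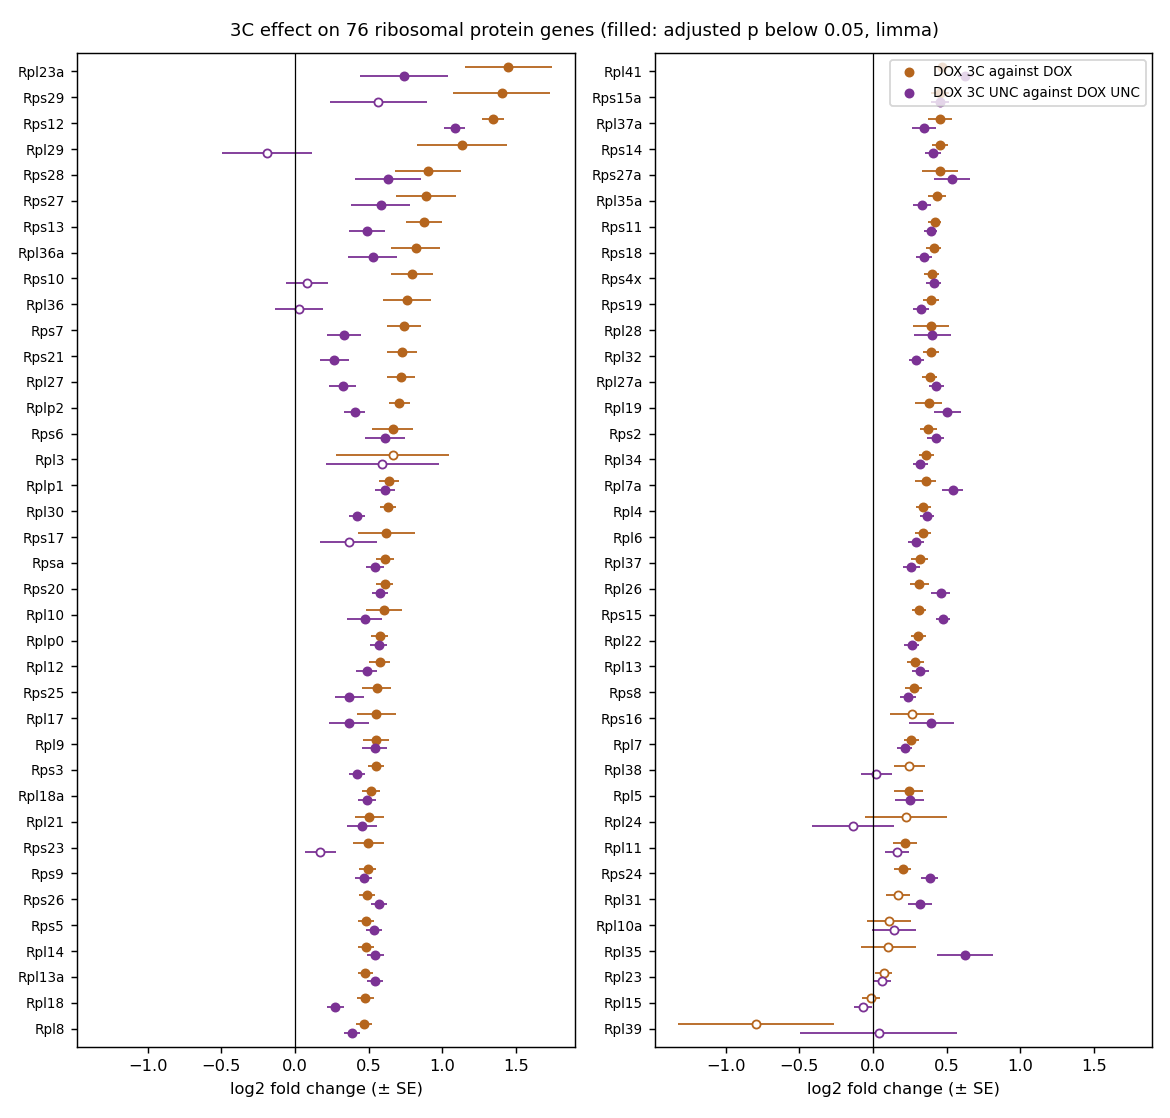
Log2 fold change ± standard error (x axis) of each of the 76 ribosomal protein genes (y axis, in the order of DOX 3C against DOX) for DOX 3C against DOX in brown and DOX 3C UNC against DOX UNC in purple; filled points passed an adjusted p of 0.05 in limma. Nearly all points lie right of 0, the brown ones with a median of 0.47 and the purple ones with a median of 0.40, and no filled point lies left of 0.

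With UNC in the medium of both groups, DOX 3C UNC against DOX UNC, 62 of 76 members were called higher and 0 lower by limma, where 23.9% of all genes tested were called higher and 23.5% lower, 47.4% in all. There were 0 lower members at an unadjusted p below 0.05, 0 by edgeR, with 61 higher, and 0 by DESeq2, with 57 higher. The median log2 fold change was 0.40, against 0.01 over all tested genes. For 61 members the DOX 3C UNC libraries all lay above the DOX UNC libraries, as they did for 27.5% of all tested genes. Of the small-subunit genes 26 of 30 were called, and of the large-subunit genes 36 of 46. This comparison shares no library with DOX 3C against DOX. Both came from 1 fit with a common error per gene, and same-numbered libraries correlated weakly across groups. The 2 sets of calls are therefore not independent. In both comparisons 59 members were called higher, which is 89.4% of those called without UNC and 95.2% of those called with UNC. The share of all tested genes called higher in both is not given here. The overlap is therefore not shown to be particular to these members. Across the 76 members the log2 fold changes of the 2 comparisons correlated with Pearson r = 0.456, and with r = 0.637 over the 64 members with a mean of at least 100. The points share the read depth of each gene, and genes are not independent replicates.

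The largest increases with UNC present were those of Rps12, Rpl23a (0.74 ± 0.30), Rps28 (0.63 ± 0.22), Rpl41, Rpl35 and Rplp1. Rpl41, a peptide at the interface of the subunits, held 3826, 3880 and 3822 normalised counts in DOX 3C UNC, against 2579, 2553 and 2337 in DOX UNC (0.63 ± 0.05, adjusted p = 2.28e-08, limma). It was also higher in DOX 3C, at 3565 ± 205, than in DOX, at 2574 ± 35.7. Rpl35 held 139, 126 and 87.3 in DOX 3C UNC, against 77.7, 91.0 and 58.0 in DOX UNC (0.62 ± 0.19, adjusted p = 0.0107, limma). Its groups overlapped, and the call ended when DOX 3C UNC replicate 1 or DOX UNC replicate 3 was left out (adjusted p = 0.0601 and 0.0723, limma). The calls of Rpl23a and Rps28 also ended without DOX 3C UNC replicate 1 or 2 or DOX UNC replicate 2 or 3, with adjusted p up to 0.195 and 0.126 (limma). That of Rps27 (0.58 ± 0.20) ended without DOX 3C UNC replicate 1 or 3 or DOX UNC replicate 1. Its adjusted p was then up to 0.145, with an increase of 0.37 without DOX UNC replicate 1 (limma). DESeq2 called neither Rpl23a (adjusted p = 0.14) nor Rps28 (adjusted p = 0.0516). In limma the Rpl23a call also ended with no filter on low values (adjusted p = 0.129) and with a pseudocount of 0.5 (adjusted p = 0.051). It ended in a fit of only the groups compared too (adjusted p = 0.0565, limma).

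A minority of members passed the test in neither medium: Rpl3, Rpl10a, Rpl15, Rpl23, Rpl24, Rpl38 and Rpl39, all of the large subunit. With the replicate number as a block, 68 members were called higher without UNC and 64 with it, where 26.8% and 26.1% of all genes tested were. Then 61 were called in both media and 5 in neither, Rpl3 and Rpl38 being called. Rpl15 and Rpl23 had small standard errors and estimates near 0. Rpl15, a large-subunit protein whose gene is mutated in some cases of Diamond-Blackfan anaemia in humans, held 1562, 1411 and 1408 normalised counts in DOX 3C, against 1529, 1456 and 1441 in DOX (-0.02 ± 0.06, adjusted p = 0.854, limma). It held 1419, 1504 and 1545 in DOX 3C UNC, against 1448, 1591 and 1649 in DOX UNC (-0.07 ± 0.06). The groups overlapped throughout. Rpl23, which like Rpl5 and Rpl11 can bind Mdm2, gave 0.07 ± 0.06 and 0.06 ± 0.06. Rpl38, which in mice is needed for the patterning of the axial skeleton, gave 0.25 ± 0.10 (adjusted p = 0.0556, limma, and 0.0495 with the block) and 0.02 ± 0.10.

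Rpl3 (ENSMUSG00000060036, chromosome 15, 80077781 to 80083406) and Rpl39 (ENSMUSG00000079641, chromosome X, 37082518 to 37085222) had libraries that stood apart. Rpl3, next to the peptidyl transferase centre, held 1227, 929 and 2053 normalised counts in DOX 3C UNC and 1036, 1056 and 2466 in DOX 3C. It held 674, 665 and 1518 in DOX UNC and 685, 616 and 1612 in DOX. In all 4 groups the library numbered 3 was the high one, by 1.92- to 2.48-fold over the other two of its group. The 3C effect was not called (0.66 ± 0.38, adjusted p = 0.165, limma), nor with UNC (0.59 ± 0.38), in the fit without the replicate number. With the number as a block the same differences were called: 0.66 ± 0.08 without UNC (adjusted p = 2.21e-07) and 0.59 ± 0.08 with it (adjusted p = 1.12e-06, limma). In edgeR with the block they were called too (adjusted p = 3.82e-07 and 1.58e-06). In iPSC the 6 libraries of Rpl3 lay between 275 and 297 CPM. Rpl39, a small protein of the exit tunnel, held 4617, 4420 and 456 in DOX 3C, against 3642, 3545 and 3750 in DOX. It held 3398, 3797 and 3539 in DOX 3C UNC, against 3250, 3550 and 3654 in DOX UNC. Replicate 3 of DOX 3C, with 590 reads of Rpl39 among 19351759 reads, stood apart from the 3892 and 5969 reads of the same group and from every other library. Over all libraries the effect of 3C on Rpl39 was -0.79 ± 0.53 (adjusted p = 0.231, limma). Without that library it was 0.31 ± 0.06 (adjusted p = 0.000748), and without DOX 3C replicate 1 or 2 it was -1.36 ± 0.52 or -1.33 ± 0.52, called lower (adjusted p = 0.0416 and 0.048, limma).

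**Figure D3:**
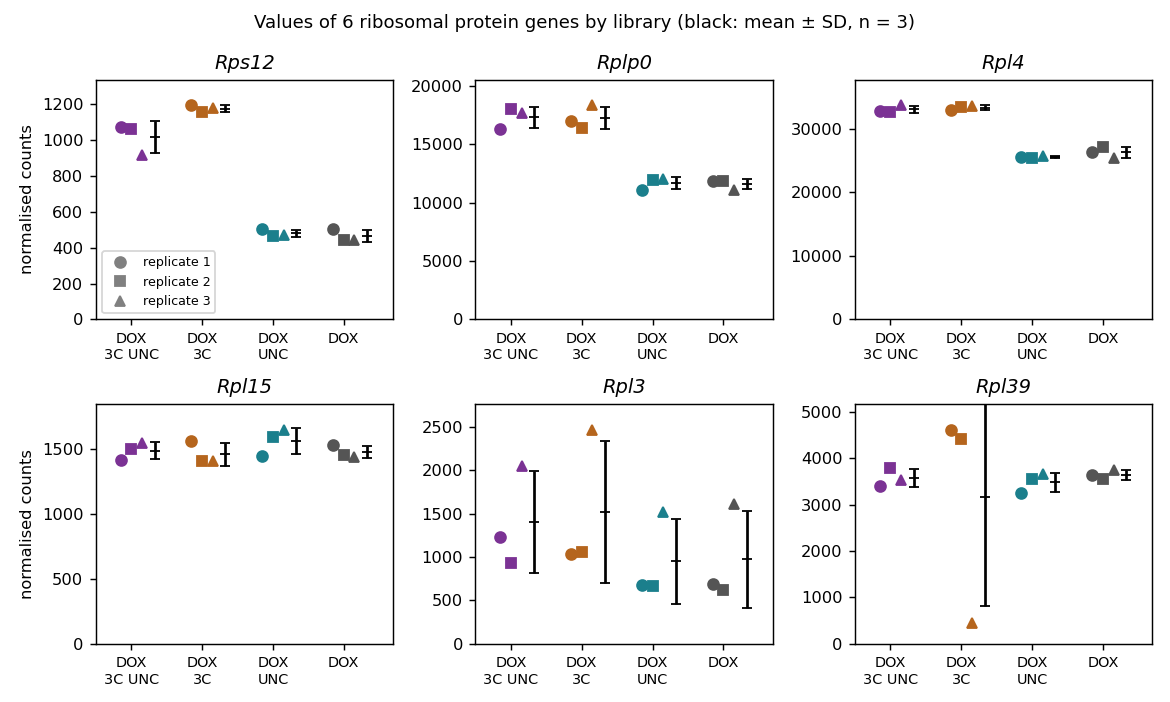
Normalised counts (y axis, from 0) of 6 ribosomal protein genes in each of the 12 reprogramming libraries by group (x axis); symbols mark the replicate number and black bars the mean ± SD of 3 libraries. Rps12, Rplp0 and Rpl4 are higher in every library with 3C, Rpl15 overlaps between groups, Rpl3 has its replicate 3 high in all 4 groups, and Rpl39 has 1 low library, DOX 3C replicate 3, at 456.

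With UNC alone no ribosomal protein gene was called. In DOX UNC against DOX, 0 of 76 members passed the test in limma, where 0.607% of all genes tested were called in either direction, 0.508% higher and 0.0991% lower. At an unadjusted p below 0.05 there were 5 higher and 1 lower members, where 5.58% and 3.74% of all genes were, and edgeR and DESeq2 gave 0 calls. The libraries were separate for 5 members in the higher and 1 in the lower direction, as for 8.47% and 6.69% of all genes. The median log2 fold change was -0.02, and all genes had 0.00. The members with the smallest p were Rpl36 (0.44 ± 0.16), Rpl30 (0.15 ± 0.05) and Rps24 (-0.15 ± 0.06), with adjusted p = 0.331, 0.357 and 0.36 (limma). Rplp0 (0.01 ± 0.06), Rps4x (-0.01 ± 0.05) and Rps19 (-0.01 ± 0.05) were at 0 within their error, and Rps6 was at -0.07 ± 0.14.

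With UNC added to 3C, 1 member was called lower. In DOX 3C UNC against DOX 3C, 0 of 76 members were called higher and 1 lower in limma, where 7.71% of all genes tested were called higher and 3.94% lower, 11.6% in all. There were 0 higher and 8 lower members at an unadjusted p below 0.05, where 14.7% and 11.1% of all genes were, and edgeR and DESeq2 each called 2 lower and 0 higher. Rpl18, a large-subunit protein, held 2885, 3178 and 3271 normalised counts in DOX 3C UNC, against 3786, 3542 and 3298 in DOX 3C. The highest of the first group lay just below the lowest of the second (-0.19 ± 0.06, adjusted p = 0.0453, limma). The call ended without either of DOX 3C replicates 1 and 2 or DOX 3C UNC replicates 1 and 2 (adjusted p between 0.0538 and 0.181, limma), and in a fit of only the groups compared (adjusted p = 0.101), where Rps10 was the 1 member called. Over the members, 0 were called without DOX 3C replicate 1 or DOX 3C UNC replicate 2, 2 without DOX 3C replicate 2 or 3, and 4 without DOX 3C UNC replicate 3. With the replicate number as a block, 6 members were called lower in limma, where 6.86% of all genes tested were, and 7 in edgeR. The 6 were Rpl18, Rps12 (-0.21 ± 0.06), Rps10 (-0.41 ± 0.12), Rpl27 (-0.29 ± 0.09), Rps21 (-0.30 ± 0.09) and Rpsa (-0.16 ± 0.05).

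Most members lay slightly below 0 in this comparison. Of the 76, 57 were below 0, where 50.5% of all tested genes were, and the median was -0.06 against 0.00. The DOX 3C UNC libraries all lay below the DOX 3C libraries for 14 members and above them for 1, where 12.7% and 16.1% of all tested genes did so. Rpl27 (-0.29 ± 0.09, adjusted p = 0.0576) and Rps21 (-0.30 ± 0.10, adjusted p = 0.0637, limma) followed Rpl18 by p. Rps21 averaged 1014 ± 168 in DOX 3C UNC and 1235 ± 31.5 in DOX 3C. The comparisons with UNC share the DOX 3C UNC or the DOX libraries with those of 3C, so their values are not independent of them.

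The difference between the 3C effect with UNC and without it (interaction) was called for 0 of 76 members in limma, where 0.062% of all genes tested were called in either direction, 0.0434% higher and 0.0186% lower. At an unadjusted p below 0.05 there were 3 higher and 12 lower members, where 6.62% and 4.52% of all genes were, edgeR gave 0, and DESeq2 gave 1 lower. The smallest p belonged to Rps10 (-0.71 ± 0.20, adjusted p = 0.159), Rps21 (-0.46 ± 0.14, adjusted p = 0.196) and Rpl36 (-0.73 ± 0.23, adjusted p = 0.2, limma). Rps10, a small-subunit protein, held 462.5, 486 and 489 normalised counts in DOX 3C UNC, against 351.9, 485.5 and 543.5 in DOX UNC. It held 772, 518 and 646 in DOX 3C, against 329.8, 391.5 and 384 in DOX. The groups overlapped with UNC present and were apart without it. Members such as Rps10, Rpl36, Rpl29 and Rps23 passed the test without UNC and not with it. In the fit without the replicate number they are therefore not shown to respond differently. With the replicate number as a block, the interaction of Rps10 was called lower in limma (-0.71 ± 0.18, adjusted p = 0.0306). It was called lower in edgeR with the block too (adjusted p = 0.0287).

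The combination DOX 3C UNC against DOX gave 61 of 76 members higher and 0 lower in limma, where 25.3% of all genes tested were called higher and 24.6% lower, 49.9% in all. There were 0 lower members at an unadjusted p below 0.05, in edgeR (61 higher) and in DESeq2 (58 higher), and the median log2 fold change was 0.41. For 63 members the groups did not overlap, as for 28.2% of all tested genes. The largest increases were those of Rps29 (1.39 ± 0.33), Rpl23a (1.24 ± 0.30), Rps12 (1.13 ± 0.07), Rps27 (0.84 ± 0.20), Rpl36a (0.80 ± 0.17) and Rps13 (0.69 ± 0.12). Rpl5 (0.09 ± 0.10) and Rpl11 (0.07 ± 0.08) did not pass. This comparison shares its libraries with those above.

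**Figure D4:**
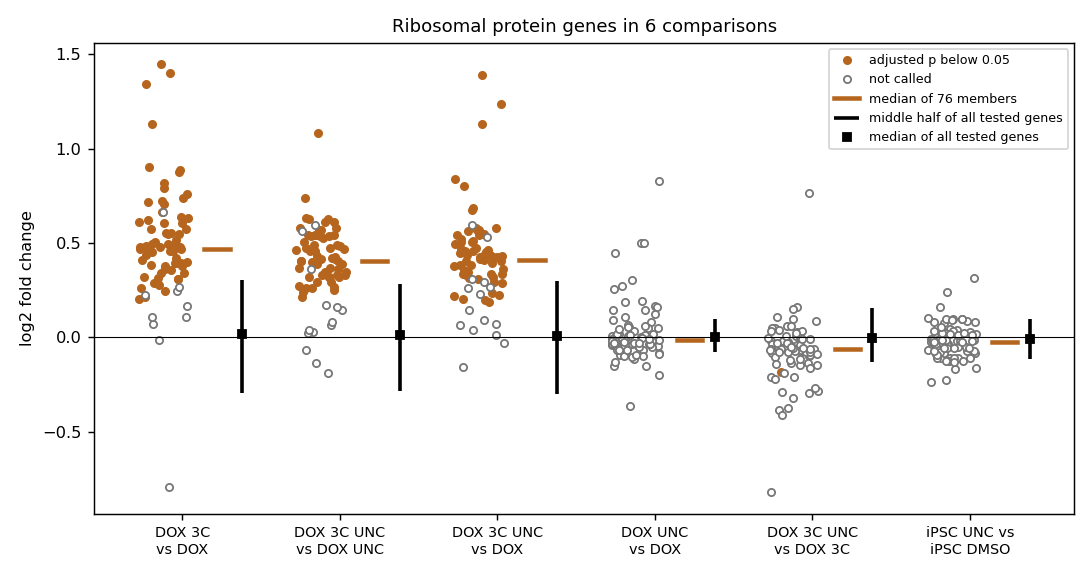
Log2 fold change (y axis) of the 76 ribosomal protein genes in 6 comparisons (x axis), filled where the adjusted p was below 0.05; brown bars mark the median of the members, black squares and bars the median and middle 50% of all tested genes. The members' medians are 0.47, 0.40 and 0.41 in the 3 comparisons with 3C on one side, and -0.02, -0.06 and -0.02 in the 3 that differ by UNC only.

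In iPSC UNC against iPSC DMSO, 0 of 76 members were called by edgeR, where 1.31% of all 17987 genes tested were called in either direction, 1.27% higher and 0.0389% lower. At an unadjusted p below 0.05 there were 1 higher and 3 lower members, where 6.11% and 6.16% of all genes were, and DESeq2 gave 0 calls. The groups were separate for 2 members in the higher and 6 in the lower direction, as for 8.95% and 10.3% of all genes. The median log2 fold change was -0.02, and no member lay beyond -0.24 or 0.32. Rpl39 held 51.4, 42.1 and 49.4 CPM in iPSC UNC, against 58.3, 57.3 and 53.7 in iPSC DMSO (-0.24 ± 0.08, adjusted p = 0.263, edgeR). Rpl27 (0.16 ± 0.06, adjusted p = 0.336) and Rpl22 (-0.17 ± 0.07, adjusted p = 0.347, edgeR) came next. The stalk genes gave 0.10 ± 0.06 for Rplp0, 0.06 ± 0.05 for Rplp1 and 0.09 ± 0.06 for Rplp2, and Rpsa varied within groups, at 394 ± 68.6 CPM in iPSC UNC and 412 ± 96.6 CPM in iPSC DMSO.

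Other genes of the ribosome and of protein synthesis were counted the same way. The comparisons are DOX 3C against DOX and, after it, DOX 3C UNC against DOX UNC, and the background shares are those given above. Of 3 ribosome components outside the rule, Rack1, Fau and Rps3a1, all were called higher without UNC, and Rack1 and Fau also with it. Rack1, the scaffold on the small subunit, averaged 42548 ± 1755 normalised counts in DOX 3C and 31656 ± 399 in DOX (0.43 ± 0.06). Fau, whose product is cleaved to give a small-subunit protein, rose by 0.61 ± 0.16 and Rps3a1 by 0.60 ± 0.21. Of 9 elongation factors and other mRNAs with TOP tracts, 8 were higher and 0 lower, and 7 and 0 with UNC, with medians of 0.43 and 0.38. Eef1d rose by 0.59 ± 0.06, Eef1b2 by 0.53 ± 0.05 and Pabpc1, the poly(A)-binding protein, by 0.58 ± 0.07, while Hnrnpa1 gave -0.01 ± 0.09. Of 28 initiation factors 19 were higher and 1 lower, and 15 and 1 with UNC; Eif3i (0.59 ± 0.06), Eif3g (0.48 ± 0.05) and Eif3e (0.40 ± 0.05), subunits of eIF3, had the smallest p, and Eif5b was lower (-0.26 ± 0.08). Paralogues of the members were higher in 5 of 6, and in 2 of 6 with UNC (5 with the replicate block), led by Rpl22l1 (0.52 ± 0.07).

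Genes that act in making ribosomes were counted next. Of 56 assembly and rRNA-processing genes 46 were higher and 1 lower, and 37 and 2 with UNC, with medians of 0.40 and 0.26. Rrp1b (0.83 ± 0.06), Rrp9, of the U3 snoRNP (0.83 ± 0.07), and Nop2, an rRNA methyltransferase (0.67 ± 0.06), had the smallest p, and Surf6 was lower (-0.23 ± 0.07, and -0.47 ± 0.07 with UNC). Of 15 genes of RNA polymerase I and its factors 10 were higher and 0 lower, and 8 and 1 with UNC. Taf1d averaged 11530 ± 576 normalised counts in DOX 3C and 5413 ± 245 in DOX (1.09 ± 0.06), and the catalytic subunits Polr1b (0.76 ± 0.07) and Polr1a (0.62 ± 0.06) followed. Of 8 noncoding hosts of snoRNAs 7 were higher in each medium, led by Snhg12 (0.91 ± 0.08) and Snhg6 (0.52 ± 0.06). Of 77 tested mitochondrial ribosomal proteins 57 were higher and 0 lower, and 50 and 0 with UNC, with medians of 0.31 and 0.25; Mrpl38 (1.01 ± 0.06), Mrpl12 (0.65 ± 0.06) and Mrpl4 (0.61 ± 0.07) had the smallest p. Their summed share of reads was 1.29 ± 0.0479 times as large in DOX 3C as in DOX.

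Regulators were called less evenly. Of 12 genes of mTOR signalling and the Myc network 1 was higher, Mtor (0.27 ± 0.05), and 3 were lower: Myc, Mxd4 (-0.90 ± 0.09) and Mnt (-0.63 ± 0.08). Mxd4 and Mnt are repressors that pair with Max. The same counts held with UNC. Reads of Myc, which combine the endogenous gene and, in cells with OKSM, the transgene, averaged 4059 ± 180 normalised counts in DOX 3C and 6369 ± 191 in DOX (-0.65 ± 0.05). They averaged 3031 ± 189 in DOX 3C UNC and 6082 ± 234 in DOX UNC (-1.01 ± 0.05). Larp1 gave 0.11 ± 0.05 and Rptor 0.08 ± 0.06. Of 12 genes of p53 and its targets 8 were higher and 1 lower in each medium. Gdf15, a secreted stress factor, averaged 458 ± 48.8 in DOX 3C and 50.8 ± 9.29 in DOX (3.16 ± 0.19), Sesn2 rose by 0.55 ± 0.06, and Trp53 itself was lower (-0.43 ± 0.06).

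In DOX 3C UNC against DOX 3C, 7 of the 56 assembly genes were called lower and 0 higher (22 lower with the replicate block), led by Utp20 (-0.30 ± 0.06), Rrp1b (-0.30 ± 0.06) and Surf6 (-0.27 ± 0.07). Their median was -0.15, against -0.06 for the ribosomal protein genes, and 27 were lower at an unadjusted p below 0.05. Of all genes tested, 7.71% were called higher and 3.94% lower, or 6.86% lower with the block. At an unadjusted p below 0.05, 11.1% of all genes were lower. Eef1g (-0.21 ± 0.06) and Nap1l1 (-0.21 ± 0.07) were the 2 called among the elongation and TOP genes. Of the 12 regulators 2 were called higher and 3 lower. Myc was lower by this comparison too (-0.42 ± 0.05), while Mxd4 was higher (0.46 ± 0.09). In DOX UNC against DOX no gene of these lists was called in limma; in iPSC UNC against iPSC DMSO Mxd4 was, at 15.7 ± 0.52 CPM in iPSC UNC and 10.9 ± 1.31 CPM in iPSC DMSO (0.54 ± 0.10).

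**Figure D5:**
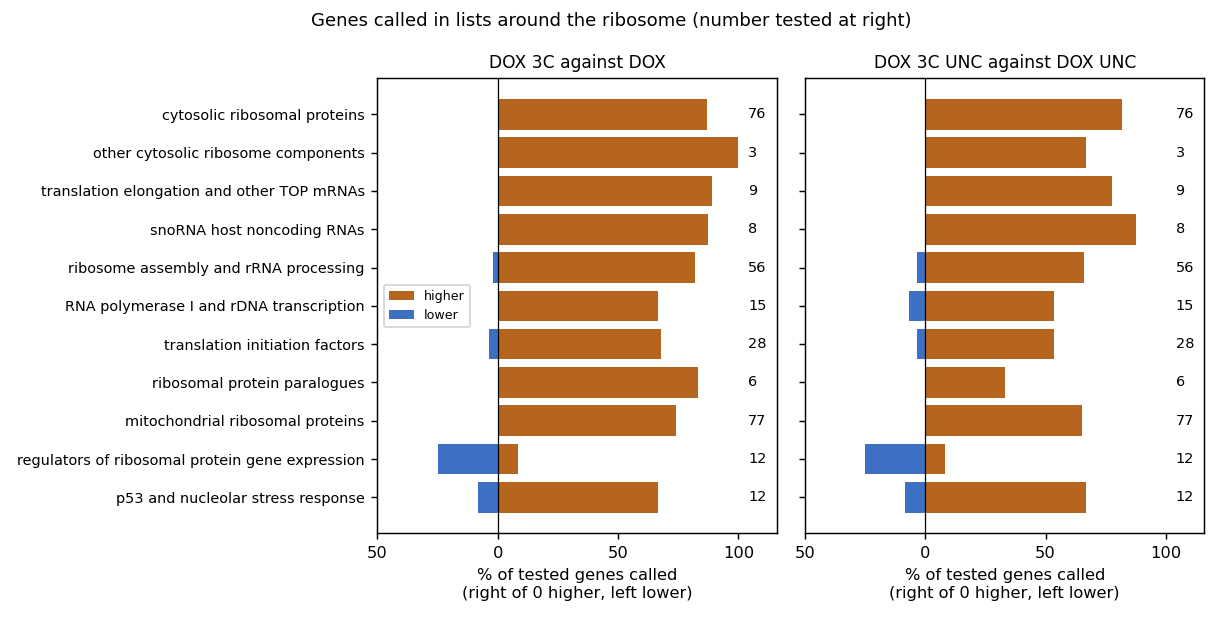
Share of tested genes called higher (right of 0, brown) and lower (left of 0, blue) in the ribosomal protein genes and 10 related lists (y axis), for DOX 3C against DOX and for DOX 3C UNC against DOX UNC; numbers at the right give the genes tested. Higher calls dominate in the lists of ribosome components, translation and ribosome assembly, while the regulators have 1 higher and 3 lower genes of 12 in each.

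Markers of cell types moved with the same comparison. The summed level of 8 fibroblast markers was 170975 to 187497 normalised counts in DOX 3C UNC and 129254 to 144151 in DOX 3C, against 248702 to 266976 in DOX UNC and 217083 to 230406 in DOX. That of 5 epithelial markers was 230 to 336 in DOX 3C UNC and 157 to 285 in DOX 3C, against 98.2 to 121 in DOX UNC and 95.2 to 107 in DOX, where Ocln was at 0 in all libraries. Both sums separated libraries with 3C from those without it, but single markers went both ways. The fibroblast sums also lay higher with UNC than without it, both with 3C and without 3C. In DOX 3C UNC against DOX 3C, 6 of the 8 fibroblast markers were called higher and 0 lower. The shares of all tested genes there were 7.71% and 3.94%. In DOX UNC against DOX 0 of the 8 were called. Of the 8 fibroblast markers 0 were called higher and 4 lower in DOX 3C against DOX. They were 3 higher and 3 lower in DOX 3C UNC against DOX UNC, and 3 higher and 2 lower in DOX 3C UNC against DOX. In these 3 comparisons 24.7%, 23.9% and 25.3% of all tested genes were called higher, and 24.7%, 23.5% and 24.6% lower. Of 4 epithelial markers tested, 2, 3 and 2 were called higher and 1 lower in each of these comparisons. Their part in the ribosomal protein result was not tested. Endothelial sums, over 5 markers with Cldn5 at 0 in all groups but DOX 3C, were 1309 to 1823 with 3C and 2480 to 2956 without it. Sums of 6 macrophage markers overlapped between all groups, at 108 to 436. Replicate 1 was lowest in each group, at 108 to 179, and at each replicate number the libraries with 3C lay above those without it. Of the 6 markers 0 were called in DOX 3C against DOX and 1, higher, in DOX 3C UNC against DOX UNC. The 7 erythroid markers summed to 122.6 to 256 except in DOX 3C replicate 1, with 2091. Without that library 64 members were called higher and 1, Rpl39, lower. The 8 pluripotency markers summed to 3.86 to 11.6 in the reprogramming libraries, with Dppa5a and Dppa4 at 0 in all of them, and to 3941 to 4459 CPM in iPSC. The fibroblast markers also differed between the iPSC groups, at 8094 to 9470 CPM in iPSC UNC and 5864 to 6433 CPM in iPSC DMSO.

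Reads of ribosomal protein genes can be shared with pseudogenes of near-identical sequence, and how reads with several matches were counted was not given. Of 298 named ribosomal protein pseudogenes 62 passed the filter in the reprogramming table. In DOX 3C against DOX 36 were called higher and 0 lower, where 24.7% and 24.7% of all tested genes were. In DOX 3C UNC against DOX UNC 24 were higher and 0 lower, where 23.9% and 23.5% of all tested genes were. Their share of reads was 0.285% ± 0.00666 in DOX 3C and 0.206% ± 0.00621 in DOX, a ratio of 1.38 ± 0.0527, close to that of the members. In iPSC the share of the named pseudogenes was larger, at 0.891% ± 0.0521 in iPSC UNC and 0.924% ± 0.0453 in iPSC DMSO. Levels of single members are therefore uncertain in both tables, by an amount that was not measured. Rps27 also has the near-identical copy Rps27rt. In the members with a matched promoter, those with and without the pyrimidine run had like values in DOX 3C against DOX. With a run 19 of 23 were called higher, with a median of 0.44, and without one 28 of 33, with a median of 0.40. The starts are annotated, not measured, so a member without a run here may still carry a TOP tract. A link to TOP tracts was not tested.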

How the data were processed

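RNA sequencing gave 1 value per gene for 12 reprogramming and 6 iPSC libraries; 10 H3K9me2 samples of the 28 in the series were not analysed here. Libraries were made with TruSeq stranded total RNA and RiboZero Gold, per the labels. The submitters' processing notes name the build mm10 and the tools HTSeq 0.5.4p3, TopHat2 2.1.0, SAMtools 1.8 and, with no version, DESeq; counting by strand and the handling of reads with several matches were not given in the sources used here. The deposited reprogramming table holds signal, read counts that the authors had divided by 1 factor per library: 100.0% of values were whole multiples of each library's step within 0.01 read. The deposited iPSC table holds raw counts. A further 2 reprogramming columns had no sample in the labels and were left out. For iPSC DMSO the replicate numbers of titles and descriptions disagreed, and those of the titles were used.

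The log2(value + 1) of genes with at least 10 normalised counts in at least 3 of 12 libraries was fitted with limma 3.58.1 with trend (R 4.3.3), all libraries in 1 fit, with each gene's error shared by all comparisons. For the iPSC counts the quasi-likelihood test of edgeR 4.0.16 was used, with TMM scaling and filterByExpr. P-values were adjusted by Benjamini-Hochberg over all genes tested. Alternatives were edgeR and DESeq2 1.42.0 on the recovered reads, other pseudocounts and filters, other scalings, fits of the compared groups only, a replicate block and leaving out each library. Replicate numbers were taken to pair the libraries where all 3 same-numbered pairs of a comparison deviated from their group means with a correlation over 0.1. This held for DOX 3C against DOX (0.106 to 0.156) and DOX 3C UNC against DOX UNC (0.155 to 0.205). It also held for DOX 3C UNC against DOX 3C (0.11 to 0.192). Other pairs were below 0, but deviations within a group sum to 0, which pushes them there once same-numbered pairs are above 0. The pairing comes from the data, since the labels do not say what a number marks. Over all reprogramming groups, same-numbered pairs correlated at 0.059 to 0.223 and other pairs at -0.194 to -0.0103. The limit of 0.1 therefore does not show the remaining comparisons of these libraries to be unpaired. The fit without the block stayed the main one. The scripts were tested on simulated data. Symbols were found for 54042 of 54109 and 54723 of 54838 identifiers. One gene of the related lists is not reported here. Members and lists were chosen with earlier results of these data known. Genes were named by rule: per comparison up to 6 called members with the largest increase and up to 6 with the largest decrease, the 3 with the smallest p where fewer than 4 were called, 13 fixed members, and up to 3 called genes with the smallest p per related list. The part of the rule on levels per length was not carried out, since lengths were not used here. Other genes named were chosen after their values were seen, among them Rpl15, Rpl23, Rpl38, Rps10, Hnrnpa1, Larp1, Rptor and the genes counted as called in neither medium.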

Additional observations from a re-analysis of the deposited data

How the results depend on the processing

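Under every alternative run for them, the ribosomal protein genes kept a positive median log2 fold change in the 3 comparisons with 3C, and counts of calls stayed within 1.5 times of the reported ones. Scaled to reads outside these genes, the medians were 0.53, 0.46 and 0.45 for DOX 3C against DOX, DOX 3C UNC against DOX UNC and DOX 3C UNC against DOX. Leaving out 1 library gave 62 to 67, 56 to 59 and 57 to 61 calls, with medians of 0.44 to 0.49, 0.39 to 0.42 and 0.39 to 0.43. For DOX 3C UNC against DOX 3C, the 1 lower call became 0 with no filter on low values, 2 in edgeR, DESeq2 and the scaling above, 1, Rps10 in place of Rpl18, in a fit of only the groups compared, and 0 to 4 without 1 library (medians -0.08 to -0.05). DOX UNC against DOX stayed at 0 calls throughout. The interaction gave 0 calls without any 1 library and 1 lower in DESeq2; iPSC gave 1 higher with no filter on low counts and 0 without any 1 library (medians -0.049 to -0.00059). Leaving the 10 most abundant genes out of the total moved the shares of reads to 2.096% (DOX 3C UNC), 2.15% (DOX 3C), 1.495% (DOX UNC), 1.52% (DOX), 1.99% (iPSC UNC) and 2.04% (iPSC DMSO). The planned share over a wider set of ribosome components is not reported here. Replicate numbers did not meet the limit of 0.1 for DOX 3C UNC against DOX (0.0679 to 0.128), DOX UNC against DOX (0.094 to 0.223) or iPSC (0.0482 to 0.105). With the replicate number as a block these gave 63, 0 and 0 calls, and the interaction 1 lower, Rps10 (1 in edgeR). Where the limit was met, the block gave 68 and 64 higher calls with 3C. It gave 6 lower for DOX 3C UNC against DOX 3C (7 in edgeR), and it ended no call of a named member. Depth limits the members with few reads, such as Rps29.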
